A study of Mus musculus with 12 samples.

Results

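The cytotoxic granule genes are 10 genes whose products are stored in, line or accompany the lytic granules of killer lymphocytes, namely *Gzma*, *Gzmb*, *Gzmc*, *Gzmf*, *Gzmk*, *Gzmm*, *Prf1*, *Nkg7*, *Srgn* and *Fasl*. They were chosen by symbol, and all 10 were among the 31053 genes of the 2 count matrices. The samples came from spontaneous breast tumors of MMTV-PyMT mice, which form tumors because a mammary tumor virus promoter switches on polyoma middle T in mammary epithelium, and no additional treatment was given. PyMT-PAR2 WT mice were compared with PyMT-PAR2 G37I mice, whose protease-activated receptor 2 resists signaling by coagulation factor Xa. For each genotype there were 3 samples of CD11c-selected cells from late-stage tumors and 3 samples of CD4/CD8-selected cells from mid-size tumors, all taken with beads, frozen, thawed and run on the 10x Genomics platform. All of these mice carried the oncogene, were female and were on a C57BL/6 background.

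Each matrix pools its 6 samples without naming the sample of a barcode, so each matrix was treated as 1 sample and the genotypes were not compared. The barcodes of each matrix run through the alphabet 6 times, and values are also given for these 6 barcode runs, which were linked to no sample. The CD4/CD8-selected matrix held 22806 cells with at least 200 detected genes and 135965765 unique molecular identifiers (UMIs, each of which marks 1 captured mRNA molecule), and the CD11c-selected matrix held 11639 cells and 123642015 UMIs. UMIs per run ranged from 16203038 to 30168668 and from 13314063 to 24231244, and 51 and 76 barcodes occurred more than once. A level is the UMIs of a gene summed over a group of cells, per 1000000 UMIs of that group (CPM), with an exact 95% Poisson confidence interval (CI). A share of cells has an exact Clopper-Pearson 95% CI. These intervals cover counting error only, cells are not replicates, and no p-values are given.

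Killer T cells and natural killer (NK) cells keep perforin and granzymes in lysosome-like granules and release them at the contact with a target cell. Perforin (*Prf1*) opens the way into the target, and the granzymes are serine proteases that cut proteins there, each with its own preference. Serglycin (*Srgn*) is the proteoglycan that holds granule contents together, NKG7 (*Nkg7*) is a granule membrane protein needed for efficient release, and Fas ligand (*Fasl*) kills by a separate route through the receptor Fas. In tumors, CD8 T cells that meet antigen persistently pass from a progenitor state marked by *Tcf7* to a terminally exhausted state marked by *Havcr2*, the gene of TIM-3, with *Pdcd1*, the gene of PD-1, in both.

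The genes lie in few places of the genome (GRCm38, GENCODE M21 annotation). *Gzma* (chr13:113093825-113100981) and *Gzmk* (chr13:113171608-113225908) are neighbors on the minus strand, 70.6 kb apart. *Gzmb* (chr14:56258838-56262260), *Gzmc* (chr14:56231441-56234656) and *Gzmf* (chr14:56205263-56211417) lie in a cluster on the minus strand of chromosome 14, with 24.2 kb between the first pair and 20.0 kb between *Gzmc* and *Gzmf*. *Prf1* (chr10:61297833-61304680), *Srgn* (chr10:62493833-62527451) and *Gzmm* (chr10:79689020-79695261) share chromosome 10. *Nkg7* is at chr7:43437073-43438249 and *Fasl* at chr1:161780689-161788495. Among stretches of 50 bases, 64 of 870 from *Gzmf* transcripts (7.36%) and 35 of 845 from *Gzmc* transcripts (4.14%) were found in transcripts of another granzyme gene of this cluster, and for the other 8 members no stretch was shared. In the last 400 bases, from which a count of transcript ends is mostly made, *Gzmf* shared 32 of 351 stretches (9.12%) and *Gzmc* none. The counts of *Gzmf* are therefore less certain than those of the other members, and those of *Gzmc* only for reads outside its end. Which end of the transcripts was counted is not stated in the sources used here.

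Promoter windows run from 250 bases before to 50 bases after the RefSeq transcription start (GRCm38.p6). They are shown for the 6 granzyme members. In the CD8 comparisons reported below, every member called at 2-fold in the main processing was a granzyme. All 10 members had a window, and *Gzmm* and *Srgn* had 2. Capitals mark matches, on either strand, to a T-box half-site (AGGTGT), a RUNX site (TGTGGT), an AP-1 site (TGANTCA) and a TCF/LEF site (CTTTGA). Of the 2 *Gzmm* windows, the one nearer to the start of the annotated gene is shown. The *Gzmk* window lies inside the annotated gene, whose transcription would start at position 113225908 by the GENCODE annotation.
Gzma (chr13:113100932-113101231, minus strand): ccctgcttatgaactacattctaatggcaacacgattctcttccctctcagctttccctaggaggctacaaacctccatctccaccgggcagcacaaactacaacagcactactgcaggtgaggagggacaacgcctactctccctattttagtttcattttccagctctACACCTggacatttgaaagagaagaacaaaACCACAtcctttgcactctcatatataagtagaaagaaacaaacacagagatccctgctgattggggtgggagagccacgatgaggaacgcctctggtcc
Gzmk (chr13:113180916-113181215, minus strand): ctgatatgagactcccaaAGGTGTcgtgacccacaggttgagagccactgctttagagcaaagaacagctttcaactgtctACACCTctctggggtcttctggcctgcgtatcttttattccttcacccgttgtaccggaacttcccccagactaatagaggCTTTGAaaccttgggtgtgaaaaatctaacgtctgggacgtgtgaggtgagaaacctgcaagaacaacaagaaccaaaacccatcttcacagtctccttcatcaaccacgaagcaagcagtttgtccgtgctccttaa
Gzmb (chr14:56262285-56262584, minus strand): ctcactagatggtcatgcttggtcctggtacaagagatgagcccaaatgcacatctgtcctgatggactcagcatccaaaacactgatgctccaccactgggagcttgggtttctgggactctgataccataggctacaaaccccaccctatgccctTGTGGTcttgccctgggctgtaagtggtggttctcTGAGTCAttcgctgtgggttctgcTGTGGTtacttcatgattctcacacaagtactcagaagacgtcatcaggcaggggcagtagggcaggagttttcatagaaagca
Gzmc (chr14:56234608-56234907, minus strand): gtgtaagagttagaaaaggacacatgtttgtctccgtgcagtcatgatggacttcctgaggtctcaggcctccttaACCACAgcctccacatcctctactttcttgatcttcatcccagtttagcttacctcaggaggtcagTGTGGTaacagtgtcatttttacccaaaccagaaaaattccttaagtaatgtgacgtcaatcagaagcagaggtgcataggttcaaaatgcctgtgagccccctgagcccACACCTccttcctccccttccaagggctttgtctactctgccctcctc
Gzmf (chr14:56211358-56211657, minus strand): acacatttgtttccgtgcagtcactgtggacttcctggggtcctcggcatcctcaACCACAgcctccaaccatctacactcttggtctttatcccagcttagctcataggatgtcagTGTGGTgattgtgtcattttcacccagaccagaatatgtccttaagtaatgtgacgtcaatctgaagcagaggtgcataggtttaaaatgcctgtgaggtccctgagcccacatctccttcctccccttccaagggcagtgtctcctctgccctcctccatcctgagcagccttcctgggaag
Gzmm (chr10:79688770-79689069, plus strand): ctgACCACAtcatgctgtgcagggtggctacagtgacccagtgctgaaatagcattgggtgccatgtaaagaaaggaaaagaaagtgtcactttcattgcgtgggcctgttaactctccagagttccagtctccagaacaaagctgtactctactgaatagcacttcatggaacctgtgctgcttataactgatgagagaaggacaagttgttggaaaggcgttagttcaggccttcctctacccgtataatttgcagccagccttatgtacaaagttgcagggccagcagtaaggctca
The RUNX letters were found in 8 of the 12 member windows (66.7%) and in 16.8% of 32851 RefSeq promoter windows of the same length. The T-box letters were found in 5 of 12 (41.7%), against 13.7% of all windows. The AP-1 letters were found in 1 (that of *Gzmb*), against 7.81% of all windows, and the TCF/LEF letters in 1 (that of *Gzmk*), against 16.003%. *Gzmc* and *Gzmf* shared 45 of 289 words of 12 bases, while no other pair of member windows shared more than 1. A match of letters is a description of the sequence and not a measured binding site.

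Cells were gated by transcripts. The CD8 gate (*Cd3d*, *Cd3e* or *Cd3g* with *Cd8a* or *Cd8b1*, without *Cd4*, *Foxp3* or *Trdc* and with fewer than 2 macrophage markers) held 16334 of the 22806 CD4/CD8-selected cells (71.6%), with a median of 4522 UMIs. The CD4 gate held 574 cells (370 of them in run 1), the *Foxp3* gate 100 cells, the *Trdc* gate 216 cells (196 of them in run 2), the plasmacytoid dendritic cell (pDC) gate 116 cells, the macrophage gate 964 cells and the epithelial gate 270 cells. The NK gate held 1 cell and is not described further for these cells. In the CD8 gate, *Cd3e* was detected in 84.5% of cells and *Trbc2* in 95.2%. The markers did not bear out every name. In the *Trdc* gate, which stands for γδ T cells, 94.9% of cells also had a UMI of *Trac*, the αβ receptor constant gene, and 92.6% one of *Cd8a*, so these cells are called *Trdc*-positive. Of the 116 cells of the pDC gate, 86 also fell in another gate, and *C1qa*, a macrophage marker, was detected in 44.8%.

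In the CD8 gate, *Nkg7* and *Srgn* were found in nearly every cell and the granzymes in some. *Nkg7* stood at 2046 CPM (95% CI, 2037 to 2056) and was detected in 96.3% of cells, and *Srgn* stood at 1191 CPM (95% CI, 1184 to 1198), in 94.5%. *Gzmk*, a granzyme typical of memory-like and exhausted CD8 T cells, stood at 204 CPM (95% CI, 201 to 207), in 47.2% of cells. *Fasl* stood at 148 CPM (95% CI, 146 to 151), in 48.7%. *Gzmb*, the granzyme best known for triggering apoptosis, stood at 349 CPM (95% CI, 345 to 353), in 34.3%. *Prf1* stood at 42.8 CPM (95% CI, 41.5 to 44.2), in 18.6%, and cells that had it held on average 1.24 UMIs. A low share of *Prf1* cells thus goes with very few molecules per cell. *Gzmm* was detected in 5.55% of cells at 18.5 CPM (95% CI, 17.6 to 19.4), *Gzmc* in 1.22% at 6.52 CPM (95% CI, 5.996 to 7.08), and *Gzmf* in 0.171% at 0.831 CPM (95% CI, 0.651 to 1.04).

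*Gzma* was concentrated in few CD8 cells. It stood at 397 CPM (95% CI, 393 to 401), but only 1800 cells (11.02%) had a UMI, with 19.4 UMIs per such cell and up to 322 in 1 cell. The 134 cells richest in *Gzma*, 0.820% of the gate, held 50% of its UMIs. The same 50% lay in 663 cells for *Gzmb* (4.06%), in 1845 cells for *Gzmk* (11.3%), in 2343 for *Fasl* (14.3%) and in 3922 for *Nkg7* (24.0%). The rarest members rested on a handful of cells, since 17 cells held 50% of the *Gzmc* UMIs and 5 cells held 50% of the 73 *Gzmf* UMIs. When each cell was thinned to 2000 UMIs, which 14984 cells of the gate reached, the shares were 93.0% for *Nkg7*, 87.0% for *Srgn*, 31.8% for *Gzmk*, 27.1% for *Fasl*, 25.6% for *Gzmb*, 8.75% for *Prf1*, 8.28% for *Gzma*, 2.66% for *Gzmm*, 0.440% for *Gzmc* and 0.0934% for *Gzmf*.

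**Figure D1:**
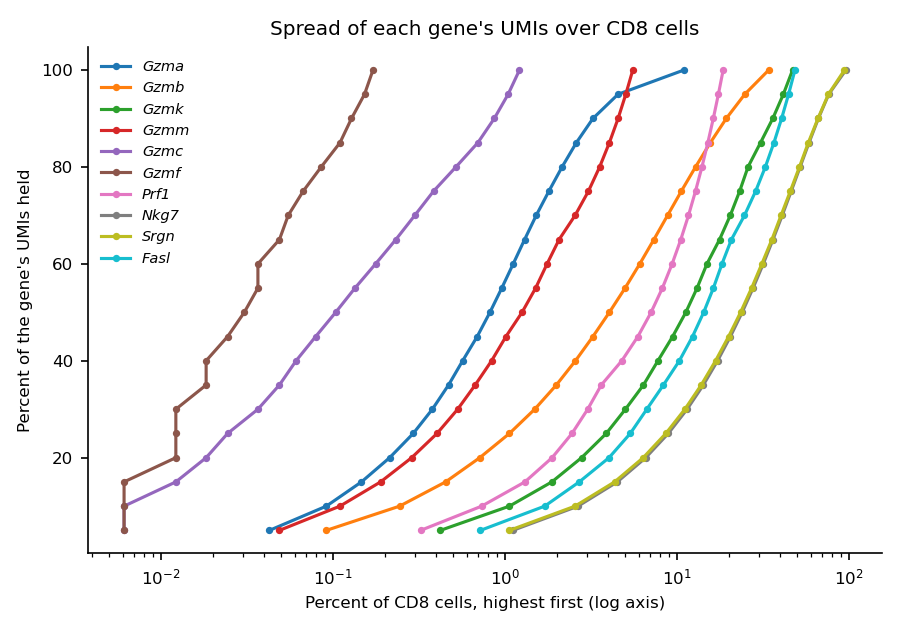
Percent of each gene's UMIs held (y axis) by the given percent of CD8 cells, counted from the cell with most UMIs down (x axis, log scale), 1 line per granule gene. Gzma reaches 50% of its UMIs in 0.820% of the cells, Gzmb in 4.06% and Nkg7 in 24.0%.

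The runs differed in level for several members. *Gzma* ranged over the 6 runs from 153 to 671 CPM (median 351), *Gzmk* from 100.7 to 283 CPM (median 217) and *Gzmb* from 287 to 443 CPM (median 334). *Gzmm* ranged from 5.33 to 25.6 CPM, with the lowest value in run 3, the run that also had the highest *Nkg7* level (2733 CPM) and held 494 of the 964 macrophage-gated cells. *Gzmc* ranged from 0.905 to 15.8 CPM, whereas *Srgn* kept within 1058 to 1417 CPM. *Gzma* and *Gzmc* thus varied more over runs than *Gzmb* or *Srgn*.

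Outside the CD8 gate, the granule genes separated into those that other T cells also had and those that they nearly lacked. In macrophage-gated cells of the same matrix, a cell type not known for these genes, *Gzma* stood at 1.02 CPM, *Gzmb* at 0.957, *Gzmk* at 0.359, *Prf1* at 0.180, *Fasl* at 0.479 and *Nkg7* at 5.68 CPM. The share of these cells with a *Gzma* UMI was 1.76%, at a median of 15075 UMIs per cell. Every one of these 6 genes was above that level in CD8 and in CD4 cells.

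CD4 cells had 48.4 CPM of *Gzmb* (95% CI, 40.2 to 57.7), from 22 cells of which 1 held 79 of the 123 UMIs. Their *Gzma* level was 13.4 CPM (34 UMIs in 20 cells), and *Prf1* stood at 3.15 CPM. *Gzmk* reached 66.5 CPM in CD4 cells (95% CI, 56.8 to 77.3), with a UMI in 14.1% of cells, and *Nkg7* reached 400 CPM in 51.7%. The CD8 level was 29.7-fold that of CD4 cells for *Gzma* (95% CI, 21.2 to 42.8), 13.6-fold for *Prf1* (6.90 to 31.5), 7.21-fold for *Gzmb* (6.04 to 8.68), 5.12-fold for *Nkg7* (4.81 to 5.45) and 3.07-fold for *Gzmk* (2.64 to 3.59). Since 370 of the 574 CD4 cells lay in run 1, the ratios were also taken within run 1, a comparison added with the data in view. There, *Gzma* stood at 671 CPM in CD8 and 10.8 CPM in CD4 cells (62.0-fold, 38.7 to 106.4), *Gzmb* at 287 and 21.65 CPM (13.2-fold, 9.46 to 19.1), *Prf1* at 33.8 and 4.46 CPM (7.57-fold, 3.65 to 18.9), *Nkg7* at 1811 and 425 CPM (4.26-fold, 3.94 to 4.60) and *Gzmk* at 283 and 81.5 CPM (3.47-fold, 2.91 to 4.17). The pooled order of *Prf1* and *Gzmb* thus turned within run 1, where their intervals overlapped. Within run 4, with 119 CD4 cells, the ratio was 82.9-fold for *Gzma* (32.4 to 304) and 3.10-fold for *Gzmb* (2.49 to 3.91). It was 10.2-fold for *Nkg7* (8.59 to 12.3) and 6.02-fold for *Gzmk* (4.16 to 9.08), and CD4 cells there had no *Prf1* UMI. The *Gzmb* and *Nkg7* intervals of runs 1 and 4 did not overlap, so these ratios changed between runs. For *Fasl* the levels were closer, 148 CPM in CD8 and 124 CPM in CD4 cells (1.19-fold, 95% CI 1.07 to 1.34), and the runs of the 2 gates overlapped (87.7 to 188 and 71.3 to 158 CPM).

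*Foxp3*-positive cells, regulatory T cells by this marker, had *Gzmb* but few other members. *Cd4* was detected in 36% of them and *Epcam*, an epithelial marker, in 33%, against 8.46% for *Epcam* in the CD8 gate. *Gzmb* stood at 124 CPM (95% CI, 95.5 to 158), from 65 UMIs in 9 of 100 cells with up to 31 UMIs in 1 cell. In the 3 runs with at least 10 such cells it was below this pooled level, at 72.5, 102 and 13.7 CPM. No *Gzma*, *Gzmc*, *Gzmf* or *Gzmm* UMI was found in 525052 UMIs, which allows up to 5.71 CPM of each. *Gzmk* stood at 7.62 CPM (4 UMIs), *Prf1* at 1.90 CPM (1 UMI) and *Fasl* at 13.3 CPM (7 UMIs). *Fasl* was thus 11.1-fold lower than in CD8 cells (95% CI, 5.39 to 27.6) and *Nkg7*, at 64.8 CPM, 31.6-fold lower (22.6 to 45.6).

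*Trdc*-positive cells had more *Gzmk* and *Nkg7* and less *Gzmb* and *Gzmm* than CD8 cells. *Gzmk* stood at 364 CPM (95% CI, 332 to 398), 1.78-fold the CD8 level (1.62 to 1.95), with a UMI in 76.9% of cells, and *Nkg7* at 2699 CPM. *Gzmb* stood at 130 CPM (111 to 151), a level 2.68-fold lower than in CD8 cells (2.30 to 3.14), and *Prf1* at 42.4 CPM, with a CD8 over *Trdc* ratio of 1.01 (0.775 to 1.34). *Gzmm* stood at 3.08 CPM, from 4 UMIs, 6.01-fold lower than in CD8 cells (2.34 to 22.1). Nearly all of these cells lay in run 2, in which CD8 cells had their lowest *Gzmk* level. Within run 2, *Gzmk* stood at 410 CPM in *Trdc*-positive and 100.7 CPM in CD8 cells, *Gzma* at 358 and 198 CPM, and *Gzmb* at 145 and 328 CPM. The other runs held fewer than 10 such cells each, so this difference was seen in 1 run.

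*Srgn* had an order of its own over the gates with at least 50 cells. It was highest in *Foxp3*-positive cells (2554 CPM, 95% CI 2419 to 2694), followed by CD4 cells (2009 CPM), macrophage-gated cells (1474 CPM), pDC-gated cells (1389 CPM), *Trdc*-positive cells (1217 CPM) and CD8 cells (1191 CPM), and stood at 56.8 CPM in epithelial cells. The smaller gates are left out of this order, and they stood at 3632 CPM (neutrophils, 4 cells), 1885 CPM (cDC2, 17 cells), 1775 CPM (migratory DCs, 5 cells) and 1116 CPM (cDC1, 34 cells). The markers did not bear out the names of these cDC gates. *Siglech*, which the pDC gate requires, was detected in 97.1% of the cDC1 and 76.5% of the cDC2 gate. Of their cells, 33 of 34 and 13 of 17 also fell in another gate. The *Trdc*-positive and CD8 values did not differ beyond counting error (ratio 0.979, 95% CI 0.931 to 1.03), nor did the run ranges of CD8, pDC-gated and macrophage-gated cells separate. In pDC-gated cells, the granzymes and *Prf1* were at or near 0, with 2 UMIs of *Gzmb* (1.38 CPM, 95% CI 0.167 to 4.98) and none of *Gzmk* or *Prf1*, which allows up to 2.07 CPM. In the 30 pDC-gated cells outside every other gate there was no granzyme UMI, and *Srgn* stood at 1293 CPM.

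**Figure D2:**
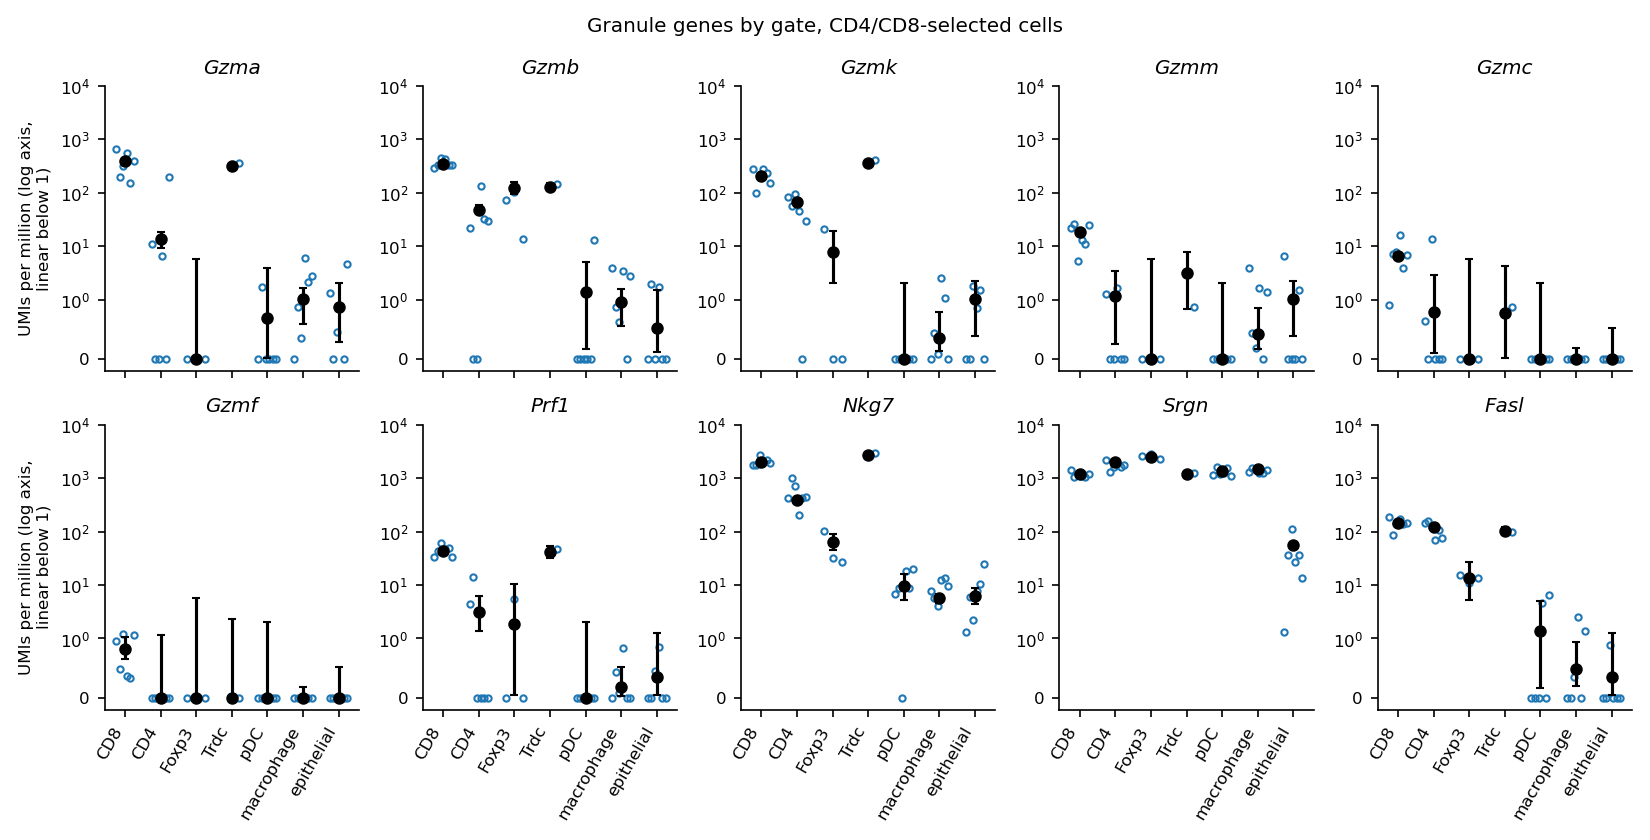
Level of each granule gene (y axis, UMIs per 1000000, log scale that is linear below 1) in 7 gates of CD4/CD8-selected cells. Filled points are pooled levels with 95% Poisson CI, open points are barcode runs with at least 10 cells of the gate. Srgn stays above 1000 in all but the epithelial gate, while Gzma, Gzmk and Prf1 fall to about 1 or below in the pDC, macrophage and epithelial gates.

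CD8 cells were next split by the exhaustion marker *Pdcd1*, to ask which granule genes go with it. A gene was called when its level differed at least 2-fold between cells with and without a UMI of *Pdcd1*. Of the 10 members, 3 were called higher and 1 lower in the 7611 *Pdcd1*+ cells, against 2.75% and 2.84% of the 11545 genes tested, that is with at least 50 UMIs over both sides. This split changed with the processing, to 1 higher and 2 lower when cells were thinned before gating, 1 and 1 in cells of 3000 to 8000 UMIs, and 2 and 0 with the median over runs. No share over all genes was computed for these alternatives. The median log2 fold of the members was 0.50, and that of all tested genes 0.13. The median depth was 4440 UMIs in *Pdcd1*+ and 4603 in *Pdcd1*- cells.

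*Gzma* stood at 673 CPM in *Pdcd1*+ and 154 CPM in *Pdcd1*- cells, 4.38-fold higher (95% CI, 4.26 to 4.49), and was higher in 6 of 6 runs by 2.52- to 11.98-fold. In thinned cells, it was detected in 11.5% and 5.29%, so both more cells and more UMIs per positive cell (24.4 against 10.8) went into the difference. *Gzmk* stood at 284 and 134 CPM (2.12-fold, 2.06 to 2.19), and was higher in 6 of 6 runs, though by as little as 1.13-fold in 1 of them. *Gzmf* was found with 64 UMIs in 23 *Pdcd1*+ cells and 9 UMIs in 5 *Pdcd1*- cells (8.07-fold, 3.995 to 18.4), and 4 cells held 50% of the former. *Gzmm*, a granzyme with a preference of its own, went the other way, at 10.9 and 25.3 CPM. It was 2.33-fold lower in *Pdcd1*+ cells (2.08 to 2.60) and lower in 6 of 6 runs.

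*Nkg7* (1.53-fold), *Prf1* (1.42-fold), *Gzmb* (1.41-fold) and *Fasl* (1.31-fold) were higher in *Pdcd1*+ cells in 6 of 6 runs but under 2-fold. *Srgn* stood at 1218 and 1167 CPM, a ratio of 1.04, and was higher in 4 of 6 runs. *Gzmc* stood at 5.27 and 7.62 CPM (ratio 0.692, 95% CI 0.581 to 0.821).

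*Havcr2* was detected in 633 CD8 cells. Of the 10 members, 1 was called higher and 2 lower in *Havcr2*+ cells, against 2.53% and 4.99% of all genes tested, with a median log2 fold of 0.30 and 0.10. *Gzma* stood at 1159 CPM in *Havcr2*+ and 359 CPM in *Havcr2*- cells (3.23-fold, 95% CI 3.13 to 3.33). It was higher in 5 of 6 runs, and 14 cells held 50% of its UMIs in *Havcr2*+ cells. Run 5 departed from the rest, with 8.71 CPM in its 81 *Havcr2*+ cells and 161 CPM in its *Havcr2*- cells. *Gzmm* stood at 8.84 and 19.0 CPM (2.15-fold lower, 1.55 to 3.06), from 37 UMIs in *Havcr2*+ cells. *Gzmc* had 7 UMIs in *Havcr2*+ cells (1.67 CPM) and 6.76 CPM in the others, a call that turned to higher when cells were thinned (ratio 1.56) or limited to 3000 to 8000 UMIs (1.13), and *Gzmf* had no UMI in *Havcr2*+ cells, which allows up to 0.717 CPM. *Gzmk* (1.73-fold), *Gzmb* (1.55-fold), *Nkg7* (1.38-fold) and *Prf1* (1.33-fold) were higher, *Gzmk*, *Nkg7* and *Prf1* in 6 of 6 runs and *Gzmb* in 4.

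*Tcf7* encodes the transcription factor TCF1. Of the 10 members, 2 were called lower and 1 higher in the 4973 *Tcf7*+ cells, against 4.17% and 0.537% of all genes tested, with a median log2 fold of -0.59 and -0.08. *Tcf7*+ cells were deeper, with a median of 5677 UMIs against 4099. *Gzma* stood at 89.3 CPM in *Tcf7*+ and 590 CPM in *Tcf7*- cells, 6.61-fold lower (95% CI, 6.37 to 6.86), and lower in 6 of 6 runs. *Gzmb* stood at 154 and 471 CPM, 3.06-fold lower (2.97 to 3.16), also in 6 of 6 runs, and was detected in 11.965% and 32.1% of thinned cells. *Gzmm* stood at 29.5 and 11.6 CPM, 2.54-fold higher (2.29 to 2.81), in 6 of 6 runs. It was the sole member whose level was higher with *Tcf7* and lower with *Pdcd1* and *Havcr2* by 2-fold or more. Under 15 alternatives it passed 2-fold in all by *Tcf7*, in 14 by *Pdcd1* and in 12 by *Havcr2*, where its ratio rose past the call without run 2, without run 3 or without run 6 (at most 0.523). Among the 15, the 1.5-fold call and no minimum of UMIs left its folds unchanged, so they could not lose a call.

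*Gzmk* (ratio 0.547), *Prf1* (0.603), *Nkg7* (0.666) and *Fasl* (0.711) were lower in *Tcf7*+ cells in 6 of 6 runs but under 2-fold, while *Srgn* stood at 1168 and 1205 CPM (ratio 0.969). *Gzmc* (ratio 0.667) and *Gzmf* (0.830, 95% CI 0.490 to 1.37) showed no common direction over runs.

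*Mki67*, a marker of cycling cells, was detected in 1636 CD8 cells, which were deeper than the rest (median 8253.5 against 4368 UMIs). The members differed little by it. Of the 10, 1 was called higher and none lower, against 6.53% and 2.08% of all genes tested, with a median log2 fold of -0.11 and 0.03. The called gene was *Gzmc*, at 14.7 CPM in *Mki67*+ and 4.76 CPM in *Mki67*- cells (3.09-fold, 95% CI 2.60 to 3.67), higher in 6 of 6 runs and resting on 61 and 138 cells with a UMI. In cells of 3000 to 8000 UMIs its ratio was 1.55. *Prf1* (29.0 and 45.8 CPM, ratio 0.634) and *Fasl* (110 and 156 CPM, ratio 0.704) were lower in *Mki67*+ cells in 6 of 6 runs, while *Gzmb* (368 and 345 CPM), *Gzmk* (197 and 206 CPM) and *Gzmm* (18.7 and 18.5 CPM) had ratios near 1.

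**Figure D3:**
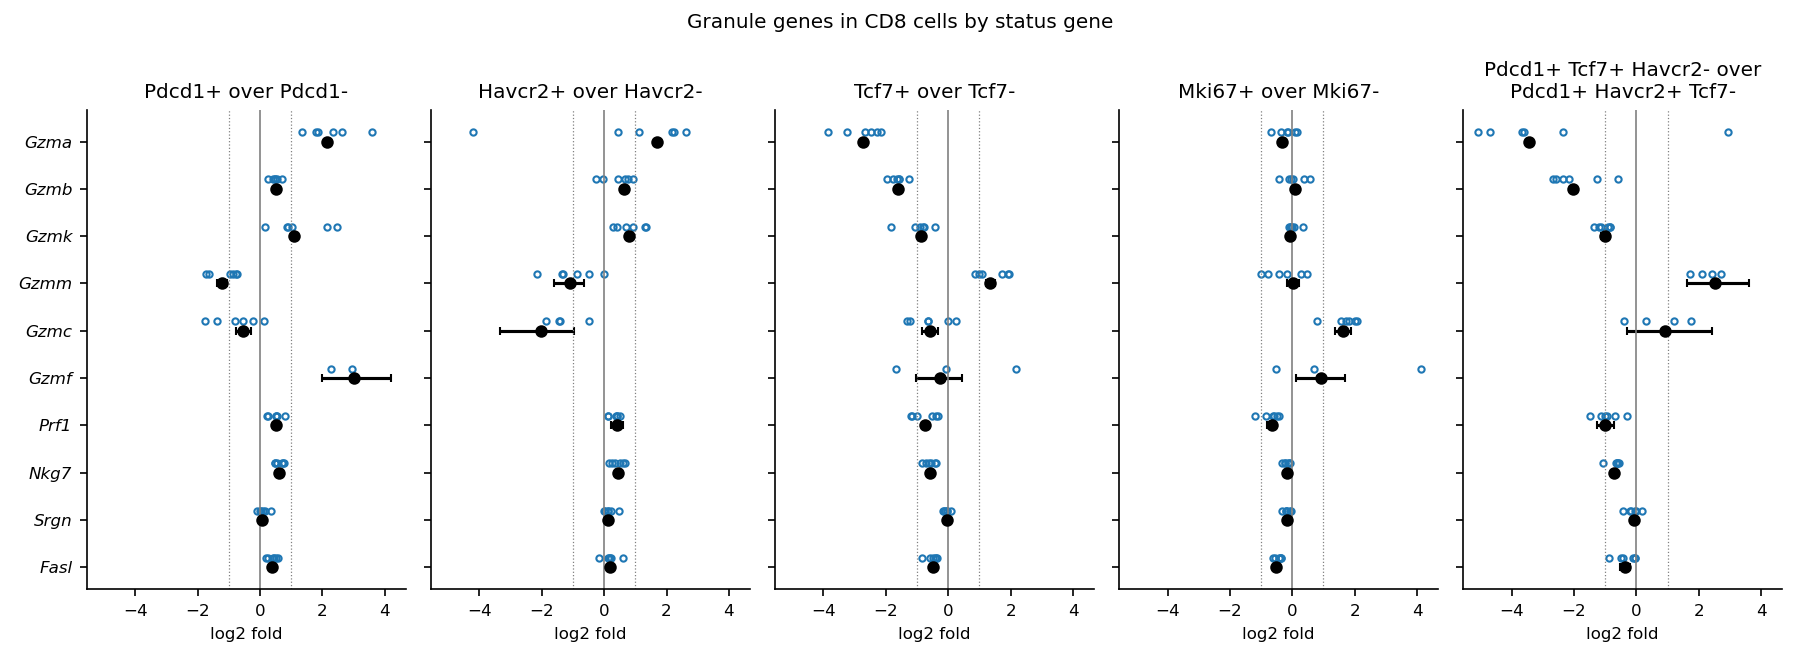
Log2 fold (x axis) of each granule gene between CD8 cells with and without a UMI of the status gene named above the panel, and between Pdcd1+ Tcf7+ Havcr2- and Pdcd1+ Havcr2+ Tcf7- cells. Filled points are pooled folds with 95% CI, open points single barcode runs, and dotted lines mark 2-fold. Gzma lies to the right for Pdcd1 and to the left for Tcf7 in all 6 runs, and Gzmm on the opposite side each time.

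The status genes were then combined. *Gzma* stood at 41.5 CPM in *Pdcd1*- *Havcr2*- *Tcf7*+ cells (3146 cells), 138 CPM in *Pdcd1*+ *Havcr2*- *Tcf7*+ cells (1717 cells), 235 CPM in *Pdcd1*- *Havcr2*- *Tcf7*- cells (5454 cells), 845 CPM in *Pdcd1*+ *Havcr2*- *Tcf7*- cells (5384 cells) and 1487 CPM in *Pdcd1*+ *Havcr2*+ *Tcf7*- cells (425 cells). *Gzmb* followed *Tcf7* more than *Pdcd1*, with 148 and 153 CPM in the *Tcf7*+ groups without and with *Pdcd1*, and 407, 518 and 628 CPM in the *Tcf7*- groups in the same order as above. *Gzmk* moved with both, at 100.9, 182, 156, 323 and 369 CPM. *Gzmm* took the reverse order, at 34.4, 21.5, 18.1, 6.15 and 3.74 CPM. *Srgn* stayed between 1143 and 1275 CPM in these 5 groups. The *Pdcd1*- *Havcr2*+ groups held 25 and 98 cells, and the *Pdcd1*+ *Havcr2*+ *Tcf7*+ group 85.

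Cells with the marker pattern of progenitor exhausted cells (*Pdcd1*+ *Tcf7*+ *Havcr2*-) were set against those with the pattern of terminally exhausted cells (*Pdcd1*+ *Havcr2*+ *Tcf7*-), a comparison added with the data in view. Of the 9 members tested, 1 was called higher and 3 lower in the former, against 2.27% and 1.97% of the 8999 genes tested, with a median log2 fold of -0.72 and -0.12. *Gzma* was 10.8-fold lower (95% CI, 10.2 to 11.4), *Gzmb* 4.10-fold lower (3.83 to 4.38) and *Gzmk* 2.02-fold lower (1.88 to 2.18). Terminal-pattern cells belong to the *Havcr2*+ cells, where few cells held much of the *Gzma*, as given above. The interval of the *Gzma* fold does not cover this spread between cells. The *Gzmk* call held in 10 of 15 alternatives, with ratios from 0.379 to 0.575, and was lost without run 4 or without run 6 (at most 0.522), with a mean over cells (0.544), after thinning and in cells of 3000 to 8000 UMIs. The 15 include the 1.5-fold call and no minimum of UMIs, which left the fold unchanged. *Prf1* stood at 29.9 and 59.8 CPM, 2.00-fold lower (1.65 to 2.41) and just short of the call. Its ratio ran from 0.424 to 0.529 over the alternatives, and it passed 2-fold in some of them, as with a mean over cells (0.464). *Gzmb*, *Gzmk*, *Prf1*, *Nkg7* and *Fasl* were lower in 6 of 6 runs. *Gzma* was lower in 5, and in run 5 it stood at 67.4 CPM in progenitor-pattern cells and 8.75 CPM in the 57 terminal-pattern cells, while the other runs had 627 to 3361 CPM in terminal-pattern cells. *Gzmm* was 5.76-fold higher (3.08 to 12.2), from 260 against 10 UMIs, and higher in each of the 4 runs with a UMI on both sides.

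**Figure D4:**
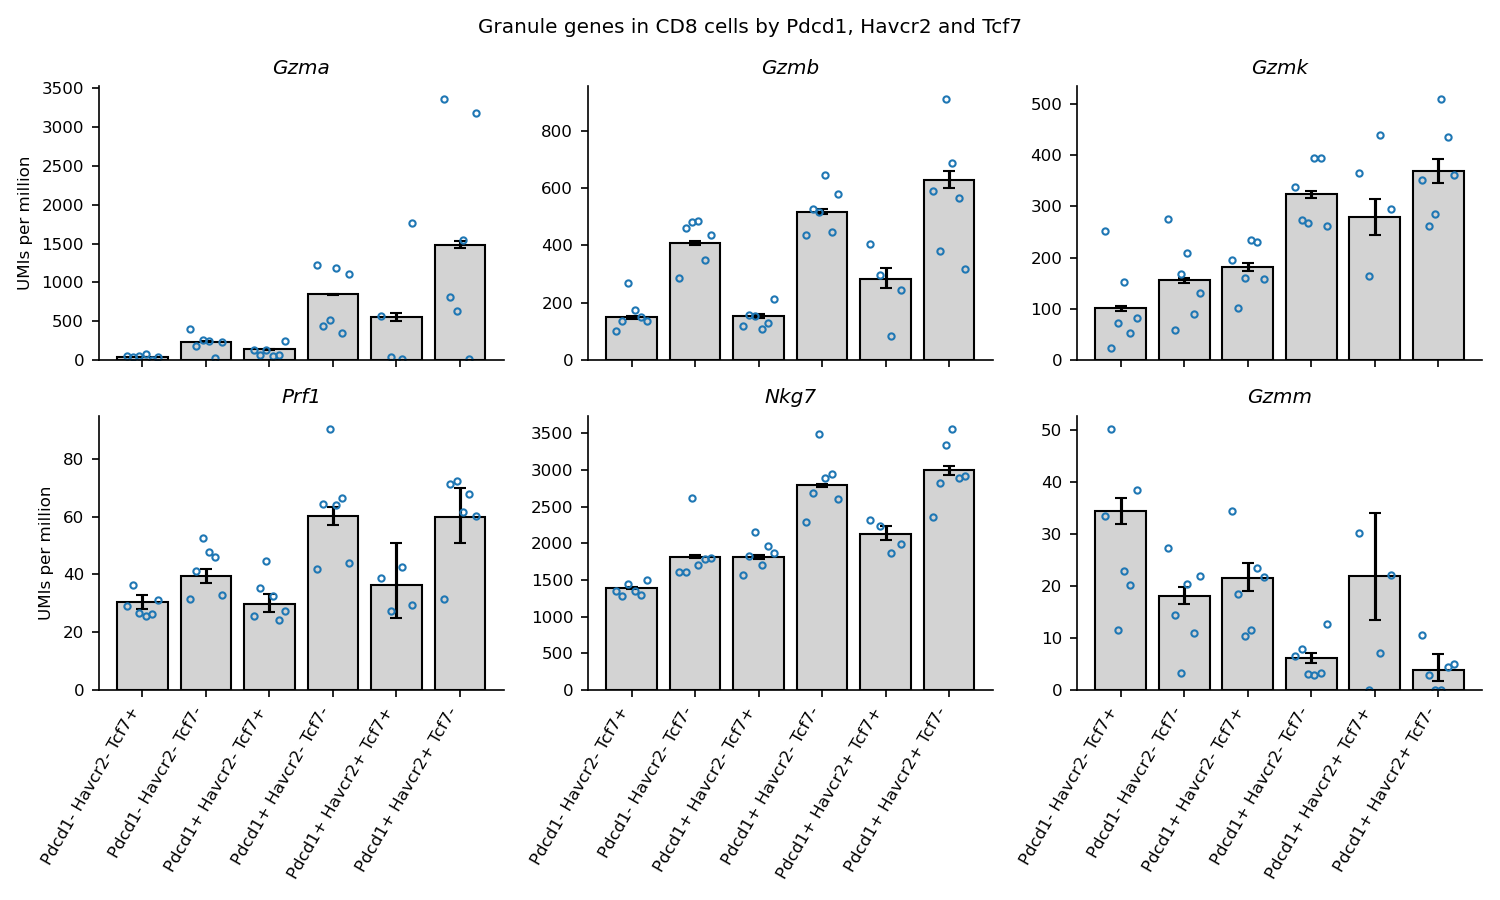
Level (y axis, UMIs per 1000000) of 6 granule genes in 6 groups of CD8 cells by Pdcd1, Havcr2 and Tcf7. Bars are pooled levels with 95% Poisson CI, open points are barcode runs with at least 10 cells of the group. Gzma goes from 41.5 in Pdcd1- Havcr2- Tcf7+ cells to 1487 in Pdcd1+ Havcr2+ Tcf7- cells, with 1 run near 0 in the latter, and Gzmm from 34.4 to 3.74.

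Adding *Mki67* to these groups changed *Gzmc* most. It stood at 37.03 CPM in *Mki67*+ and 5.65 CPM in *Mki67*- cells of the *Pdcd1*- *Havcr2*- *Tcf7*- group, and at 15.6 and 3.14 CPM in the *Pdcd1*- *Havcr2*- *Tcf7*+ group. In *Pdcd1*+ *Havcr2*- *Tcf7*- cells it stood at 6.17 and 6.24 CPM. Over the whole CD8 gate, 1 cell held 74 of the 573 *Gzmc* UMIs, so these group levels can rest on very few cells. *Gzma* stood at 1161 CPM in cycling and 1619 CPM in noncycling terminal-pattern cells, and at 168 and 128 CPM in cycling and noncycling progenitor-pattern cells.

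Granzymes occurred together in part. Of the 14984 thinned CD8 cells, 49.3% had none of the 6 granzymes, 35.6% had 1, 12.2% had 2 and 2.90% had 3. *Gzmb* was detected in 58.3% of cells with *Gzma* (95% CI, 55.5 to 61.1) and in 22.6% of cells without it (21.9 to 23.3). *Gzmk* was detected in 51.7% and 30.0%, *Fasl* in 33.0% and 26.6%, and *Srgn* in 88.9% and 86.8%. The gap in cells with *Gzma* was thus wider for *Gzmb*, which lies on another chromosome, than for its neighbor *Gzmk*. *Gzmm* was found less often where *Gzmb* was present, in 1.44% of cells (1.08 to 1.86) against 3.08% (2.77 to 3.42), and *Gzmc* more often, in 1.25% (0.925 to 1.66) against 0.161%. *Prf1* was detected in 12.2% of cells with *Gzmb* and 7.58% of those without.

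Cells grouped by *Gzma*, *Gzmb* and *Gzmk* also differed in the status genes. The 402 thinned cells with all 3 (2.68%) had a UMI of *Pdcd1* in 55.2% and of *Tcf7* in 2.74%. The 7660 cells with none (51.1%) had *Pdcd1* in 24.9% and *Tcf7* in 20.8%. Cells with *Gzmk* alone (19.9%) lay between, with *Pdcd1* in 39.2% and *Tcf7* in 15.7%, as did cells with *Gzmb* alone (13.1%), with 35.5% and 7.36%. *Mki67* was similar in these groups, from 5.62% to 7.95% over all 8 patterns. Cells without any of the 3 granzymes still had *Nkg7* in 89.5% and *Srgn* in 86.2%.

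Of 25 other genes of the granule pathway, 21 could be tested, since the chromosome 14 granzyme genes *Gzmd*, *Gzme*, *Gzmg* and *Gzmn* had no UMI in CD8 cells. By *Pdcd1*, none of the 21 was called. The nearest were *Stx11* (23.5 and 13.2 CPM, 1.77-fold) and *Rab27a* (31.0 and 19.0 CPM, 1.63-fold), both needed to dock and fuse granules, and the granule chemokine gene *Ccl5* (1.57-fold). By *Havcr2*, *Stx11* was called higher (35.6 and 17.1 CPM, 2.08-fold, 95% CI 1.74 to 2.46) and was higher in 6 of 6 runs. By *Tcf7*, *Ctsh*, a cathepsin that can process granzyme B, was called lower (3.13 and 7.33 CPM). By *Mki67*, *Ctsh* and *Ccl5* were called lower, *Ccl5* at 3867 and 8057 CPM (ratio 0.480). *Ctsw* (cathepsin W), *Cst7* (cystatin F) and the granzyme inhibitor gene *Serpinb9* kept ratios of 0.844 to 1.17 by *Pdcd1*, *Tcf7* and *Mki67*. Among all genes tested, the shares called higher and lower were 2.75% and 2.84% by *Pdcd1*, 2.53% and 4.99% by *Havcr2*, 0.537% and 4.17% by *Tcf7* and 6.53% and 2.08% by *Mki67*. In these splits, 0 to 2 calls among 21 genes are too few to set this list apart from them. Between progenitor-pattern and terminal-pattern cells, 0 of the 21 were called higher and 2 lower, against 2.27% and 1.97% of all genes tested.

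Of 10 regulators, *Tox*, a factor of exhaustion, was called higher in *Pdcd1*+ cells (219 and 80.0 CPM, 2.74-fold). In *Havcr2*+ cells *Prdm1* (2.41-fold) and *Tox* (2.07-fold) were called higher and *Id3* (ratio 0.334) and *Klf2* (0.469) lower. In *Tcf7*+ cells *Prdm1* (0.391) and *Tox* (0.489) were called lower, and none was called by *Mki67*. *Tbx21* and *Eomes*, the T-box factors of killer lymphocytes, were not called in any of these 4 splits. Of all genes tested, 2.75% were called higher by *Pdcd1*, 2.53% higher and 4.99% lower by *Havcr2*, and 4.17% lower by *Tcf7*. Progenitor-pattern over terminal-pattern cells had higher *Id3* (4.69-fold), *Bach2* (3.24-fold) and *Klf2* (2.97-fold) and lower *Prdm1* (0.246) and *Tox* (0.451). These are 3 higher and 2 lower calls among 10 genes, against 2.27% and 1.97% of all genes tested.

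Likeness of pattern was measured by Pearson's r of log2(CPM + 1) over the 16 groups of CD8 cells given by the 4 status genes, among 8077 other genes with at least 500 UMIs in CD8 cells. The groups share the same runs, and the smallest held 6, 8 and 19 cells, so that their counting error enters r. The genes most like each member were *Ubap1* for *Gzma* (r = 0.94), *Cd3g* for *Gzmb* (0.82), *Gpr34* for *Gzmc* (0.87), *Mxi1* for *Gzmk* (0.95), *Gramd3* for *Gzmm* (0.92), *Mkrn1* for *Prf1* (0.90), *1110008P14Rik* for *Nkg7* (0.96), *Pcmtd1* for *Srgn* (0.93) and *Atp6v0d1* for *Fasl* (0.92). *Bach2* (0.92) was also among the 3 genes most like *Gzmm*, and *Id2* (0.94) among those most like *Nkg7*.

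In CD11c-selected cells, *Srgn* was the sole member at a high level in myeloid gates. It stood at 4499.7 CPM in neutrophils (157 cells, 95% CI 4295 to 4711), 2014 in cDC2, 1786 in migratory DCs, 1464 in macrophages (8597 cells, 95% CI 1457 to 1472), 1452 in pDC-gated cells, 1318 in cDC1 and 46.4 CPM in epithelial cells. Neutrophils had 3.07-fold the macrophage level (2.93 to 3.22), and the 3 runs with at least 10 neutrophils (4216 to 4861 CPM) did not overlap those of macrophages (1220 to 1701 CPM). The pDC-gated cells, of which 473 of 522 lay in another gate, had a 95% CI (1425 to 1478 CPM) that overlapped that of macrophages.

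The other members were near 0 in macrophages, at 0.199 CPM for *Gzma*, 0.105 for *Gzmb*, 0.0105 for *Gzmk*, 0.0419 for *Prf1*, 0.230 for *Fasl*, 1.04 for *Nkg7*, 0.691 for *Gzmm* and 1.44 CPM for *Gzmc*, which had 138 UMIs in 12 cells. *Gzmm* was spread thinly, with 66 UMIs in 61 of 8597 cells and at most 2 in a cell, below the 2.30 CPM of epithelial cells, 4.08% of which had a UMI of it. It is therefore left out of the next count. The other members came from few cells. Of 561 UMIs of 8 members (all but *Srgn* and *Gzmm*) in 9677 cells of 6 myeloid gates, 512 (91.3%) lay in 16 cells with at least 5 such UMIs. Of these 16 cells, 14 also had a UMI of at least 1 of 6 lymphoid genes (*Ncr1*, *Klrb1c*, *Trdc*, *Trac*, *Trbc2* and *Tcrg-C4*), against 1.02% of all cells of these gates, and their median depth was 13518.5 against 8566 UMIs. The *Gzmc* level of cDC1 (20.5 CPM) rested on 123 UMIs of 1 cell, and the *Gzma* level of cDC2 (14.5 CPM) on 45 UMIs of 2 cells. All 45 *Gzma* UMIs and 131 of 137 *Gzmc* UMIs in the 3 DC gates lay in 4 cells that also met the NK gate. The part of doublets in these values was not tested.

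Killer lymphocytes were few among CD11c-selected cells, and their levels rest on 12 to 26 cells a gate. In 25 NK-gated cells, *Gzma* stood at 867 CPM (95% CI, 745 to 1005, 8 cells with a UMI), *Gzmc* at 1121 CPM (981 to 1275, 10 cells), *Prf1* at 136 CPM (90.7 to 197) and *Nkg7* at 989 CPM, and 123 of the 230 *Gzmc* UMIs lay in 1 cell. The 4 cells that also met a DC gate held 131 of these *Gzmc* UMIs and 45 of the 178 *Gzma* UMIs. Without them, in a step added with the data in view, *Gzmc* stood at 826 CPM (671 to 1005), with 75 of 99 UMIs in 1 cell, and *Gzma* at 1109 CPM (929 to 1314). In 12 *Trdc*-positive cells, of which 3 had a UMI of *Trac* and none one of *Cd8a*, *Gzmb* stood at 1209 CPM, with 75 of its 122 UMIs in 1 cell, and *Gzmc* at 1556 CPM, with 139 of its 157 UMIs in 1 cell. Neither gate had a *Gzmk* UMI, which allows up to 14.6 and 29.7 CPM, whereas the 26 CD8 cells of this matrix had 172 CPM (109 to 258), with 14 of its 23 UMIs in 1 cell. *Gzmc* had 697 UMIs in 38 cells of the whole matrix, and *Gzmf* had none.

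**Figure D5:**
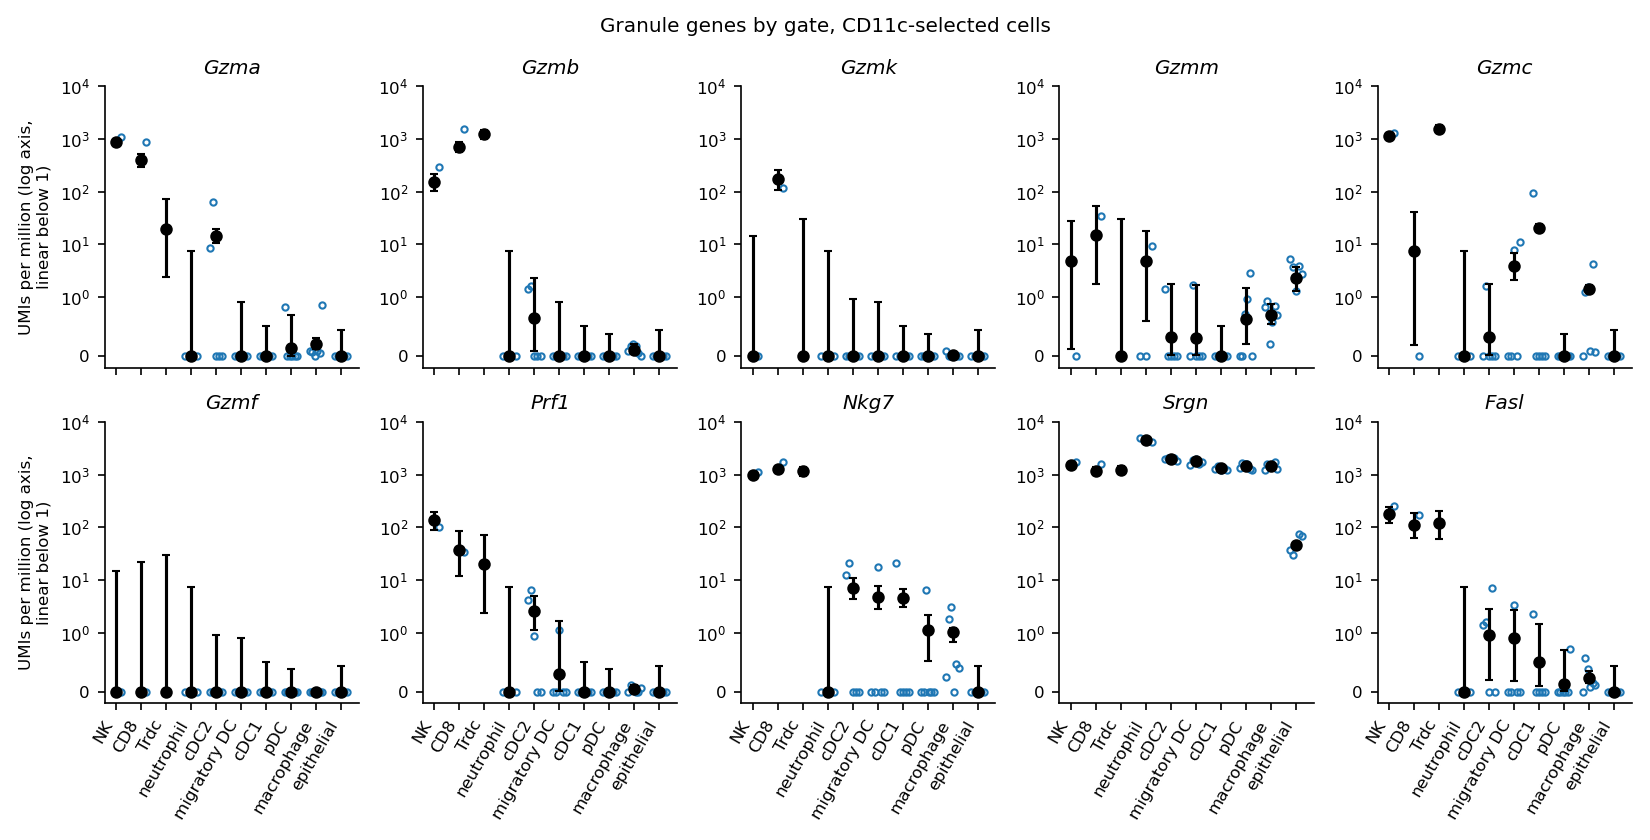
Level of each granule gene (y axis, UMIs per 1000000, log scale that is linear below 1) in 10 gates of CD11c-selected cells. Filled points are pooled levels with 95% Poisson CI, open points are barcode runs with at least 10 cells of the gate. Srgn is above 1000 in all gates but the epithelial one, and the pooled levels of Gzmb, Nkg7 and Fasl are above 100 in the NK, CD8 and Trdc gates and below 10 in the others.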

How the data were processed

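Transcripts of single cells were measured in 12 samples, 3 per genotype and selection. According to the submitters' processing notes, Cell Ranger 3.0.2 and the mm10 build were used. The deposited values are raw UMI counts, made by the authors and not normalized, with 1 sparse matrix for each selection. Any filter on cells by the authors is not given in the sources used here. No column or barcode names a sample, so the planned edgeR test of genotypes was not run.

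Barcodes with fewer than 200 detected genes were dropped, namely 295 CD4/CD8-selected and 341 CD11c-selected barcodes. Gates were set by presence of marker transcripts, and a cell was positive for a status gene at 1 UMI. Doublets were not removed. Levels were summed UMIs per 1000000, folds were ratios of levels with exact conditional 95% intervals, a count of 0 stood at 3 counts, and folds were called at 2-fold with at least 50 UMIs over both sides. For a run without UMIs on 1 side no fold was computed. Thinned shares used 2000 UMIs per cell (seed 1). Folds were tested on simulated data with known changes. The members, gates, gene lists and comparisons were chosen with earlier results of these data known. The named genes were the members, 25 pathway genes, 10 regulators and, for each member with at least 500 UMIs, the genes most alike in pattern. Python 3.11.15, numpy 2.4.6, scipy 1.17.1, pandas 2.3.3 and matplotlib 3.10.9 were used. Of the 31053 symbols, 30431 (98.0%) matched GENCODE M21.

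Alternatives were a mean over cells, cells with at least 500 genes and under 10% mitochondrial UMIs, thinning before gating, cells with 3000 to 8000 UMIs, a status threshold of 2 UMIs, no minimum of UMIs, a 1.5-fold call, the highest 5% of UMI totals left out, the median over barcode runs, and each run left out in turn. A 1.5-fold call and no minimum of UMIs change which genes are counted but not a member's fold. In counts of alternatives past 2-fold they therefore repeat the main result. The comparison of progenitor-pattern and terminal-pattern cells, the CD8 over CD4 ratios within a run and the NK levels without DC-gated cells were added after seeing the data.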

Additional observations from a re-analysis of the deposited data

Results flagged for a closer look

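Cells outside every gate were not used in the comparisons, and in both matrices they carried transcripts of the members listed here above the epithelial level, with 95% Poisson intervals that did not overlap. In the 4283 CD4/CD8-selected cells outside the gates (median 2492 UMIs), *Gzma* stood at 155 CPM, *Gzmb* at 139, *Gzmc* at 6.04, *Gzmk* at 95.5, *Gzmm* at 8.89, *Prf1* at 19.6, *Nkg7* at 906, *Srgn* at 1106 and *Fasl* at 83.8 CPM. In the epithelial gate of that matrix these genes stood between 0 and 6.25 CPM, apart from *Srgn* at 56.8 CPM. In the 1568 CD11c-selected cells outside the gates (median 3466.5 UMIs), *Gzma* stood at 11.05 CPM, *Gzmb* at 6.07, *Gzmc* at 14.9, *Prf1* at 1.45, *Nkg7* at 21.4, *Srgn* at 1339 and *Fasl* at 3.35 CPM, against 0 in the epithelial gate for all of these but *Srgn*, which stood at 46.4 CPM there. *Gzmm* went the other way in these CD11c-selected cells, at 0.543 CPM (0.199 to 1.18) against 2.30 CPM (1.31 to 3.74) in the epithelial gate.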

How the results depend on the processing

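The number of members called was 4 by *Pdcd1*, 3 by *Havcr2*, 3 by *Tcf7*, 1 by *Mki67* and 4 between progenitor-pattern and terminal-pattern cells. In cells with 3000 to 8000 UMIs it was 2 by *Pdcd1* and 0 by *Mki67*. With the median over barcode runs it was 2 by *Pdcd1*. After thinning to 2000 UMIs before gating it was 2 between the patterns. With a status threshold of 2 UMIs it was 2 by *Mki67*. At 1.5-fold it was 5 by *Havcr2*, 6 by *Tcf7*, 3 by *Mki67* and 7 between the patterns. Shares over all genes were computed only at 2-fold in the main processing. The counts under alternatives therefore cannot be set against all genes. With each run left out in turn the counts ranged from 3 to 4 by *Pdcd1*, 2 to 3 by *Havcr2*, 3 to 5 by *Tcf7* (5 without run 1), 1 to 2 by *Mki67* (2 without run 2) and 3 to 5 between the patterns. The causes were not tested.

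*Gzma* was called in all 15 alternatives by *Pdcd1* (2.69- to 5.36-fold), by *Havcr2* (2.46- to 3.83-fold) and by *Tcf7* (ratio 0.0838 to 0.178), and *Gzmb* and *Gzmm* in all 15 by *Tcf7*. In each count of 15, the 1.5-fold call and no minimum of UMIs repeat the main fold and could not lose a call. *Gzmk* was called by *Pdcd1* in 9 of 15, and it was 1.75-fold with a mean over cells and down to 1.89-fold without run 2 or run 5. Its lowest fold over all alternatives was 1.58. *Gzmm* was called by *Pdcd1* in 14 of 15 (ratio 0.532 with the median over runs) and by *Havcr2* in 12 of 15 (lost without run 2, 3 or 6, ratio at most 0.523). *Gzmc* by *Havcr2* reversed after thinning (ratio 1.56) and in cells with 3000 to 8000 UMIs (1.13). Of 120 alternative levels in the CD8 gate, 4 moved by over 1.5 times, 3 of *Gzmc* (as low as 1.28 CPM) and 1 of *Gzmf* (0.287 CPM). Over all gates, 354 of 1373 alternative levels moved by over 1.5 times.

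No paired analysis was possible because the barcodes name no sample and no test was run. The levels of *Gzmf*, of *Gzmc*, of *Gzma* in *Havcr2*+ cells and of several members in the gates of 12 to 26 cells rested on few cells. The intervals cover counting error only and not this spread between cells. Differences between animals cannot be estimated from a pooled matrix.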
